A study of Rattus norvegicus with 20 samples.

Results

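Light acting on the optoWnt receptor and the small molecule CHIR99021 were compared as inducers of the canonical Wnt pathway in rat neural stem cells. The comparison used 8 of the 20 libraries of the study. They are the 4 light and 4 CHIR99021 libraries of the treatment profiles sequenced with both inducers. The labels define this set, which was chosen with earlier results of these data known. The profiles were 1 d ON, 3 d ON, 1 d ON followed by 1 d OFF, and 1 d ON followed by 2 d OFF, so the cells were collected at 1, 3, 2 and 3 d. CHIR99021 at 5 d ON had no light partner and was left out of the tests.

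All 8 libraries came from optoWnt cells, which are adult hippocampal neural stem cells of Fisher 344 rats, transduced with the optoWnt construct and selected with puromycin as a population. The light group was illuminated with LED arrays in a basal medium with N-2 supplement and 0.5% serum. The CHIR99021 group carried the same construct, received the compound in the same basal medium, and the labels give its dose as 3 mM. That unit is far above the micromolar range in which this compound is usually applied to cells and may be an error in the label. Light intensity, the promoter of the construct and whether the CHIR99021 cells were kept in the dark are not stated in the labels. The strengths of the stimuli therefore share no scale. Unstimulated optoWnt cells of 0, 3 and 5 d serve as background, although the titles of the 3 and 5 d libraries carry the word ON and their illumination is not stated. Cells given Wnt3a at 100 ng/mL in the same profiles are set beside the comparison where this helps.

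In the canonical pathway, a Wnt ligand brings Frizzled and LRP6 together at the membrane, the complex that destroys β-catenin is disabled, and stabilised β-catenin enters the nucleus and acts with TCF/LEF factors. The optoWnt construct carries the signalling part of LRP6 fused to a plant photoreceptor that clusters in blue light, so it enters the pathway at the receptor. CHIR99021 inhibits GSK-3, the kinase inside the destruction complex, so it enters below the receptor and also reaches GSK-3 outside the Wnt pathway. In hippocampal neural stem cells this pathway is known for promoting neuronal fate and affecting self-renewal.

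Genes are given by Ensembl ID, since the files used here pair no ID with a symbol. No pathway gene, cell type marker or sequence could therefore be identified, and the labelled cell type was not checked against its markers. No combination of inducer and profile was sequenced more than once. Over the 4 profiles, the edgeR test sets the light minus CHIR99021 difference against its spread between profiles. For the ON, withdrawn and interaction contrasts the spread is that within the ON pairs and within the withdrawn pairs. In each fit, a gene's spread is moderated towards that of other genes, and it also holds any real dependence on the profile. The labels do not say whether libraries came from separate cultures.

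Total reads in the order of the profiles above were 1836461, 2421160, 3750152 and 4588870 under light, against 5125320, 4417181, 4468639 and 4468612 under CHIR99021. Light was thus the shallower library in 3 of 4 pairs. At a common depth of 1836461 reads, a read was found for 13650, 13207, 13314 and 12967 genes under light, against 13750, 13658, 13596 and 13926 under CHIR99021. Light had fewer detected genes in 4 of 4 pairs, with a mean difference of -448 genes (exact sign permutation test over pairs, two-sided p = 0.125, the smallest that 4 pairs allow). Of the other libraries deep enough for this depth, 11 in number, the counts ran from 12700 to 14029. On the first principal component of all 20 libraries, 6 stood apart at -38.6 or lower, against 10.8 or higher for the other 14. Light at 3 d ON (-38.6) and CHIR99021 at 1 d ON 2 d OFF (-42.7) were among the 6, so each of these pairs held 1 such library, on opposite sides.

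Within single profiles, the median absolute difference between the inducers on the log2 scale was 0.45 at 1 d ON, 0.77 at 3 d ON, 0.39 at 1 d ON 1 d OFF and 0.73 at 1 d ON 2 d OFF. At 1 d ON, 1591 of 9744 genes were at least 2-fold apart (16.3%), 942 of them higher under light and 649 lower. At 3 d ON, 3875 of 9943 genes were at least 2-fold apart (39%), with 1807 higher and 2068 lower. At 1 d ON 1 d OFF this held for 1134 of 9648 genes (11.8%), 493 higher and 641 lower. At 1 d ON 2 d OFF it held for 3604 of 9898 genes (36.4%), 1919 higher and 1685 lower. These counts set 1 library against 1, take genes with at least 5 CPM, the read count scaled to a common library total after TMM correction, in either, and carry no test. The high counts fell in the profiles that hold a library standing apart on the first component, whose part in them was not tested. Pearson's r of log2 CPM between the inducers across genes was 0.931, 0.818, 0.944 and 0.844 in the order of the profiles.

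**Figure D1:**
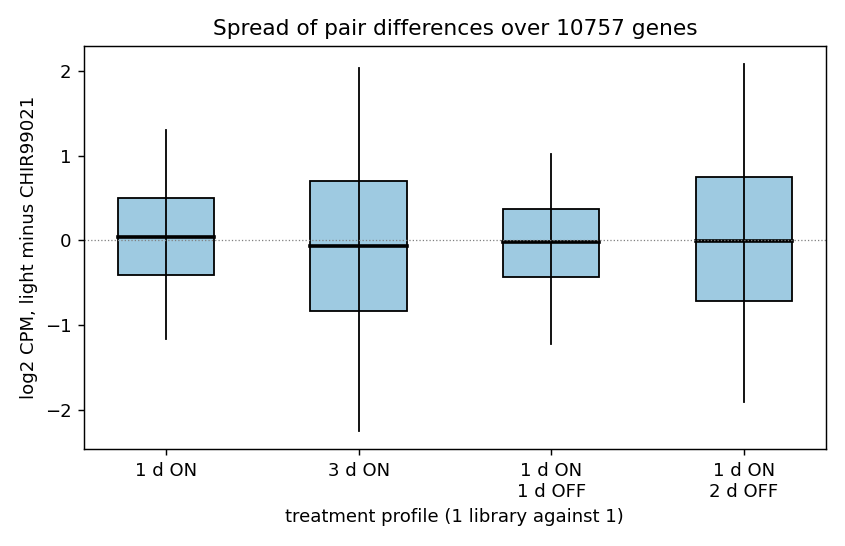
Difference in log2 CPM, light minus CHIR99021, over 10757 genes in each treatment profile. Boxes span the 25th to 75th percentile, whiskers the 5th to 95th, and thick lines mark the median; the 5th to 95th percentile ran from -2.25 to 2.04 at 3 d ON and from -1.22 to 1.02 at 1 d ON 1 d OFF, with medians between -0.07 and 0.04, which the TMM scaling centres near 0.

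The pair differences of different profiles share no library, so their likeness across genes can be described. It was closest between 3 d ON and 1 d ON 1 d OFF, with Pearson's r of 0.587 over 10757 genes and the same sign in 71.5% of them. Differences at 1 d ON had r of 0.293, 0.322 and 0.319 with those at 3 d ON, 1 d ON 1 d OFF and 1 d ON 2 d OFF. Between 3 d ON and 1 d ON 2 d OFF, whose libraries of low component score lie on opposite sides, r was -0.132. Between 1 d OFF and 2 d OFF it was 0.0232. Genes within a library are not independent replicates, and no test is attached to these values.

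Over all 4 profiles, 16 of 10757 genes tested (0.149%) differed between light and CHIR99021, 2 of them higher under light (0.0186%) and 14 lower (0.13%). The call was an adjusted p under 0.05 in edgeR's quasi-likelihood test with profile as a block and Benjamini-Hochberg adjustment. In bulk libraries, fewer cells of a type and less RNA per cell cannot be told apart. The 14 genes lower under light were between 4.08-fold and 22.2-fold lower, with a median log2 fold change of -3.11 and a median SE of 0.34, beside a median absolute log2 fold change of 0.38 over all genes tested. Before adjustment, 1451 genes had p under 0.05, and chance alone gives 538.

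**Figure D2:**
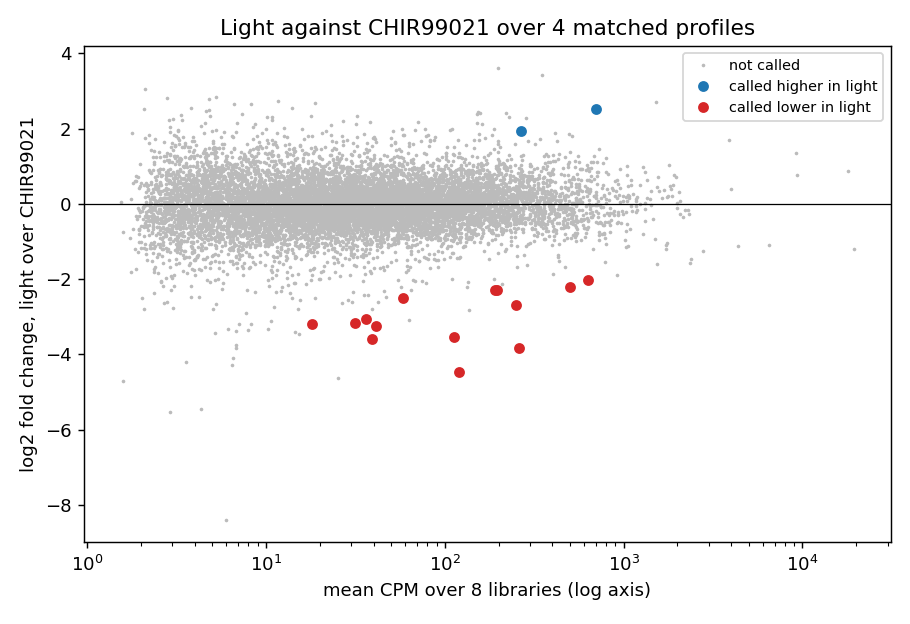
Log2 fold change, light over CHIR99021, against mean CPM of the 8 libraries (log axis) for 10757 genes. The 14 genes called lower under light reach a log2 fold change of -4.47 and the 2 called higher reach 2.52; grey points were not called.

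The number of calls rested on the profile block and on single libraries. Without the block 1 gene was called, and deviations of the paired libraries from their inducer means correlated at 0.257, 0.0321, 0.257 and -0.333 over the profiles. It was 0 without either 1 d ON library and 0 without either 1 d ON 1 d OFF library, where 878 to 914 genes had an unadjusted p under 0.05. Without the 3 d ON pair's light library 13 genes were called, and without its CHIR99021 library 1. Without the light or the CHIR99021 library of 1 d ON 2 d OFF the counts were 83 and 55. Leaving out both pairs that hold a library standing apart gave 189 calls, 92 higher and 97 lower under light, which included the 16. That fit kept only the pairs of 1 d ON and 1 d ON 1 d OFF, so its spread is poorly known. With the first principal component of the 8 fitted libraries as a covariate edgeR called 506 genes higher and 581 lower. That component is another one than that of all 20 libraries. CHIR99021 at 3 d ON was lowest on it (-53.8), then CHIR99021 at 1 d ON 2 d OFF (-49.2) and light at 3 d ON (-38.9). Light stood above CHIR99021 on it in every pair, with 38.4 against -5.2 at 1 d ON and 35.6 against 14.5 at 1 d ON 1 d OFF. The covariate was drawn from the counts under test and so overlaps the inducer. DESeq2 called 436 genes, 231 higher and 205 lower. The preponderance of genes lower under light among the 16 was thus not seen in these 3 fits. It was kept with no low-count filter (150 higher, 219 lower), with the 4 Wnt3a libraries (22 and 86) and with all 20 libraries (54 and 117). At a common depth edgeR called 16 genes, 3 higher and 13 lower, 14 of them among the original 16.

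ENSRNOG00000058645 carried the firmest difference. It stood at 6.75, 16.5, 11.1 and 6.24 CPM under light in the order 1 d ON, 3 d ON, 1 d OFF and 2 d OFF, against 135, 380, 277 and 127 CPM under CHIR99021. Every light library lay below every CHIR99021 library, and the pair differences stayed between -4.58 and -4.22 on the log2 scale. The log2 fold change was -4.47 (SE 0.28, 95% interval -5.1 to -3.84, edgeR adjusted p = 0.0011). Unstimulated optoWnt cells had 85.8, 13 and 53.9 CPM at 0, 3 and 5 d, so light at 1 d ON, 1 d OFF and 2 d OFF lay below all 3 of them and CHIR99021 above all 3 in every profile. Wnt3a gave 5.75, 40.9, 68.6 and 18.5 CPM in the same profiles, and CHIR99021 at 5 d ON 855 CPM. The adjusted p was 0.056 to 0.065 without 1 of the 1 d ON or 1 d ON 1 d OFF libraries, with log2 fold changes of -4.51 to -4.4.

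ENSRNOG00000003745 had 12.5, 46.7, 17.5 and 28.1 CPM under light, against 337, 1300, 213 and 117 CPM under CHIR99021. The groups did not overlap, but the gap was narrower at 2 d OFF, where the pair difference was -2.03 against -4.7 at 1 d ON. Its log2 fold change was -3.81 (SE 0.5, 95% interval -4.97 to -2.66, edgeR adjusted p = 0.033). Without a stimulus it stood at 3.93, 17.2 and 86.3 CPM at 0, 3 and 5 d in optoWnt cells, and all 4 light libraries lay inside that range. The call was lost without either library of 1 d ON (edgeR adjusted p = 0.31 and 0.32), either of 1 d OFF (0.24 and 0.22) or CHIR99021 at 3 d ON (0.066), and without the profile block (0.12).

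ENSRNOG00000029698 was the larger of the 2 rises. It had 803, 460, 1710 and 1600 CPM under light, against 133, 47.7, 581 and 246 CPM under CHIR99021. Light was the higher of each pair, while the lowest light library (3 d ON) lay below the highest CHIR99021 library (1 d OFF). The log2 fold change was 2.52 (SE 0.32, 95% interval 1.78 to 3.26, edgeR adjusted p = 0.033). Unstimulated optoWnt cells had 301, 953 and 792 CPM at 0, 3 and 5 d, so CHIR99021 lay below that range in 3 of its 4 profiles and light above it in both OFF profiles.

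ENSRNOG00000009983 had 458, 250, 577 and 386 CPM under light, against 117, 62.4, 199 and 82 CPM under CHIR99021. Its groups did not overlap, and the pair differences ran from 1.53 to 2.23. The log2 fold change was 1.92 (SE 0.24, 95% interval 1.37 to 2.48, edgeR adjusted p = 0.033). In unstimulated optoWnt cells it stood at 150, 304 and 176 CPM. Neither rise was called without a 1 d ON library (edgeR adjusted p = 0.31 and 0.32 for both), without a 1 d OFF library (0.22 and 0.24), without CHIR99021 at 3 d ON (0.066), without the block (0.21 for the first and 0.12 for the second) or in the fit of all 20 libraries (0.058 and 0.14). ENSRNOG00000009983 also lost its call without light at 3 d ON (0.053).

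**Figure D3:**
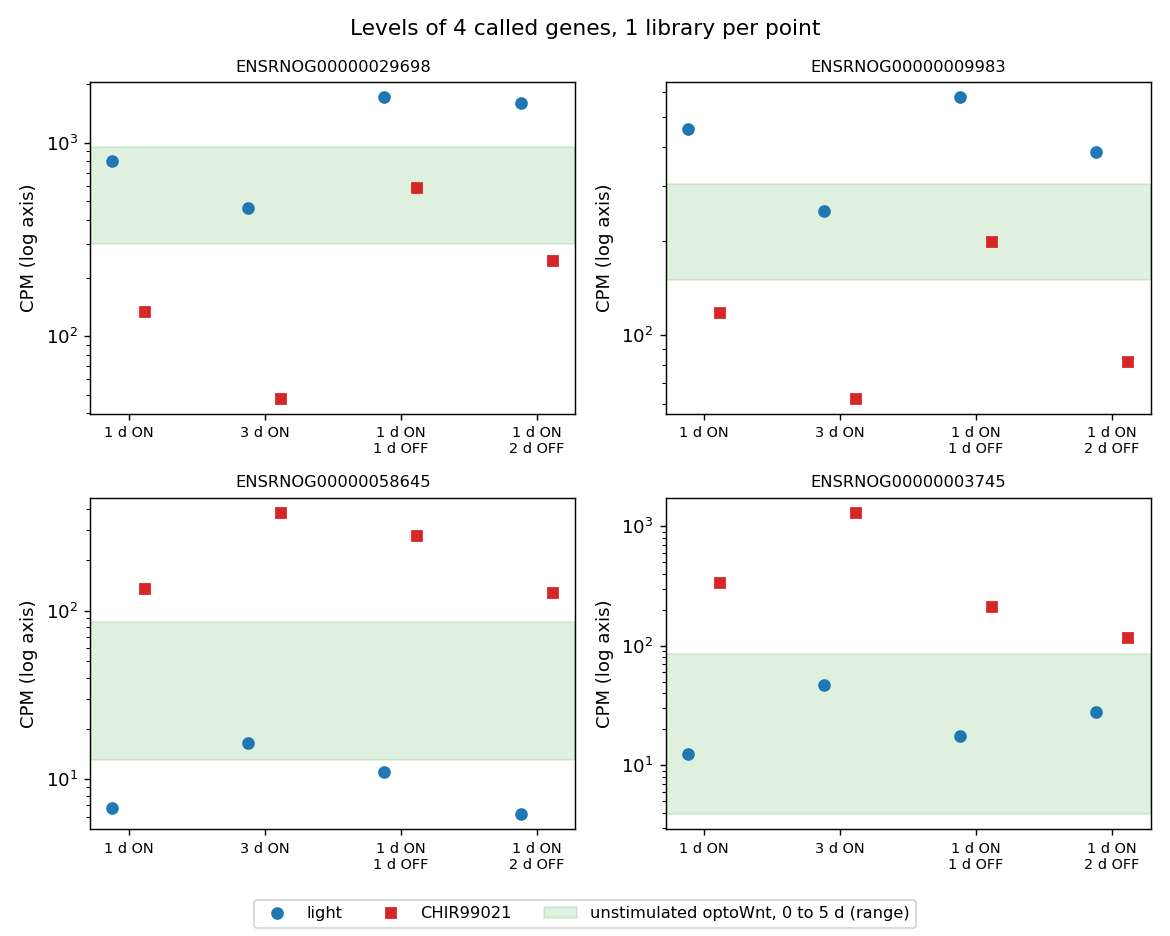
Levels in CPM (log axes) of the 4 genes named above by treatment profile, light circles left of CHIR99021 squares, 1 library per point, with the range of 3 unstimulated optoWnt libraries shaded. For ENSRNOG00000058645 every CHIR99021 point (127 to 380 CPM) stands above the shaded range and every light point is at 16.5 CPM or lower.

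All 14 genes lower under light were lower in each of the 4 pairs, by choice of the test rather than as added evidence. Their median pair difference was -2.32 at 1 d ON, -3.07 at 3 d ON, -2.99 at 1 d OFF and -2.68 at 2 d OFF. Mean levels ran from 3.8 to 217 CPM under light and from 32.5 to 1050 CPM under CHIR99021. Full separation of the 4 light from the 4 CHIR99021 libraries was seen for 8 of the 14 and for 1 of the 2 genes higher under light, and over all genes for 784 of 10757 (7.29%), of which 437 were lower under light (4.06%). Summed over the 14 genes, light libraries held 400.1, 1311, 489 and 475.3 CPM, against 2193, 10050, 2278 and 2694 CPM under CHIR99021.

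**Figure D4:**
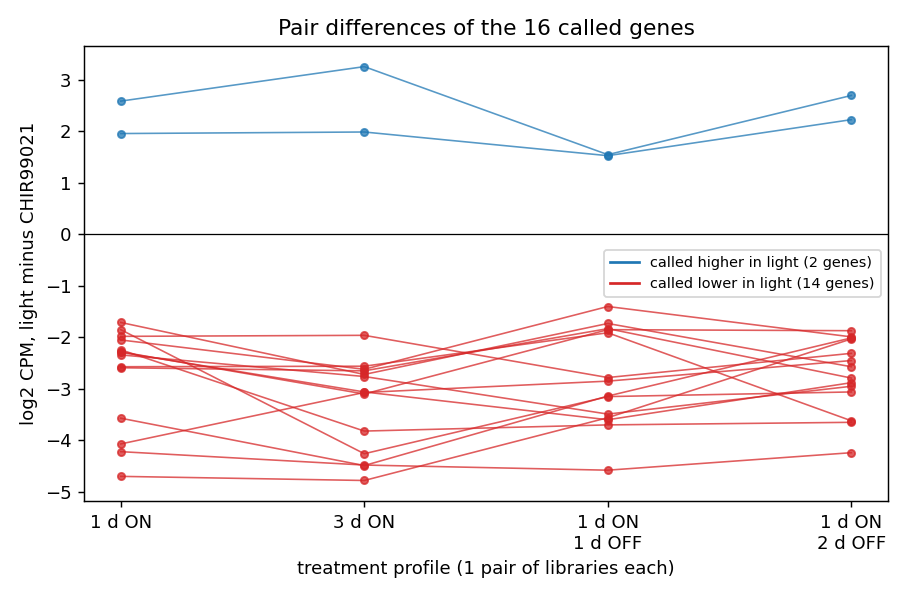
Log2 CPM of light minus CHIR99021 in each treatment profile for the 16 called genes, 1 line per gene and 1 pair of libraries per profile. All 14 genes called lower lie between -4.78 and -1.4 and both genes called higher between 1.53 and 3.26.

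The 14 genes were highest at 3 d ON under both inducers. Their highest light library was 3 d ON for 14 of 14 genes, and their highest CHIR99021 library was also 3 d ON for 14 of 14, beside 34.4% and 29.3% of all 10757 genes. From 1 to 3 d ON the median log2 change was 1.8 under light and 1.93 under CHIR99021. At day 3, constant stimulation exceeded withdrawal by a median of 1.38 under light and 1.62 under CHIR99021. Over all genes these medians lay between -0.04 and 0.01. In the wider group of 66 genes at least 2-fold lower under light in every profile, described further on, the change from 1 to 3 d ON was 0.92 under light and 1.62 under CHIR99021, that between constant stimulation and withdrawal 0.97 under light and 1.58 under CHIR99021, and 3 d ON was the highest light library for 50 of 66. Light at 3 d ON is one of the libraries that stand apart, as is CHIR99021 at 2 d OFF. The 3 d to 1 d difference was not tested here.

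Against unstimulated optoWnt cells of 0, 3 and 5 d, the 14 genes mostly stood above the whole unstimulated range under CHIR99021 and mostly did not under light. The genes were chosen for being higher in these same CHIR99021 libraries, so the counts are a description. CHIR99021 exceeded all 3 unstimulated libraries for 10 of the 14 genes at 1 d ON, 14 at 3 d ON, 12 at 1 d OFF and 14 at 2 d OFF, beside 23.3%, 35.7%, 23.3% and 32.5% of all genes. Light did so for 1, 4, 1 and 1 of the 14 in the same profiles, beside 27.2%, 32.4%, 23.2% and 29.5% of all genes. At 1 d ON, light lay below all 3 unstimulated libraries for 8 of the 14, beside 21.3% of all genes. Relative to unstimulated optoWnt cells of 3 d, the median log2 level was -0.7, 1.22, -0.26 and -0.26 under light and 2.23, 4.18, 2.34 and 2.69 under CHIR99021. Without a stimulus, 11 of the 14 stood higher at 5 d than at 0 d in optoWnt cells and likewise 11 of 14 in wild-type cells, beside 52.5% and 49.2% of all genes. CHIR99021 at 5 d ON took no part in the test and had no light partner of its day, since light ended at 3 d. It lay above every light library for 14 of 14 genes (24.5% of all genes) and above CHIR99021 at 3 d ON for 10 (47.9% of all genes). Relative to unstimulated optoWnt cells of 3 d, its median log2 level was 4.63. Without a stimulus, that level at 5 d was 1.2 in optoWnt and 2.5 in wild-type cells. The part of the later day in these counts was not tested.

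Wnt3a is a secreted ligand of the Frizzled and LRP6 receptors. Its mean over the 4 profiles lay between those of light and CHIR99021 for 14 of 14 genes lower under light, and nearer to light for 11, beside 45.3% and 37.1% of all genes. In the wider lower group it lay between for 63 of the 66 genes and nearer to light for 32. Among the 40 genes at least 2-fold higher under light in every profile, it lay between for 36 and nearer to light for 13. All these genes were picked for a wide gap between light and CHIR99021, unlike the whole of the genes tested. For both genes higher under light it also lay between, nearer to CHIR99021. Its median log2 level over the 14 genes, relative to unstimulated 3 d, was -0.52, 2.4, 1.51 and 1.56, and its 1 d ON library was the shallowest of the study. These values are a description, since the genes were picked by the other inducers.

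**Figure D5:**
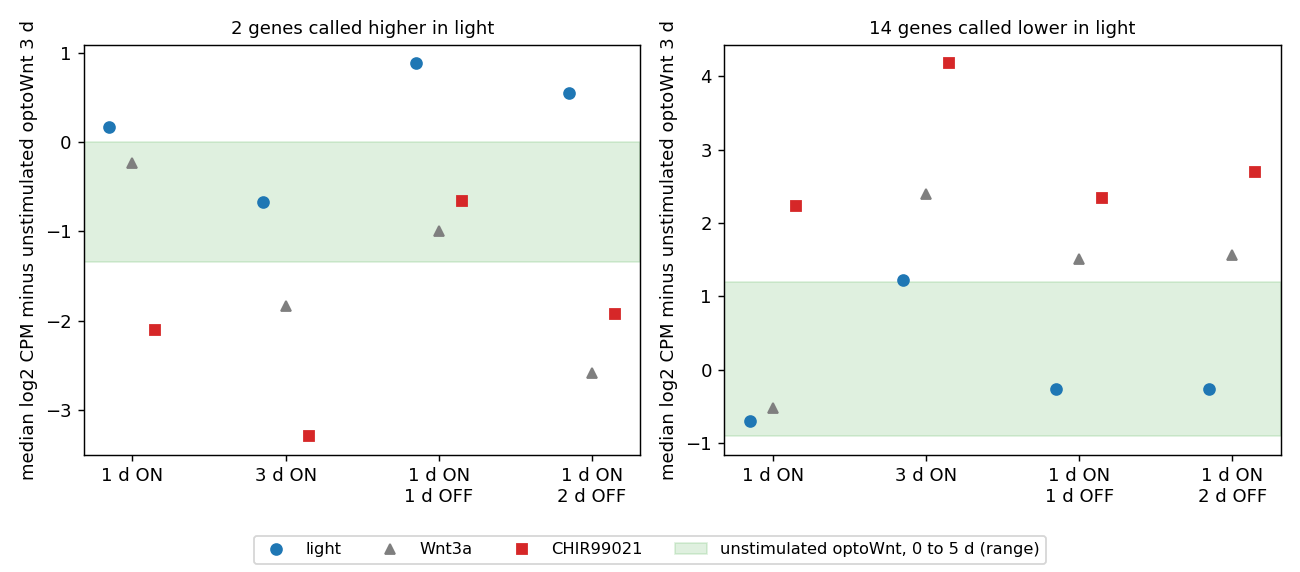
Median log2 CPM relative to unstimulated optoWnt cells of 3 d, for the 2 genes called higher and the 14 called lower under light, by treatment profile with light, Wnt3a and CHIR99021 from left to right. For the 14 genes CHIR99021 stands at 2.23 to 4.18 and light at -0.7 to 1.22, with the shaded range of unstimulated optoWnt cells from -0.91 to 1.2.

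A wider group moved in 1 direction in every pair without being called. At least 2-fold differences of 1 sign in all 4 profiles were found for 106 of the 9045 genes with 5 CPM in each pair (1.17%), 40 higher under light and 66 lower (0.73%), among them the 16 called. Of these 106, the rest had an edgeR adjusted p up to 0.25. The median pair difference of the 66 was -1.75, -2.58, -1.71 and -1.89 over the profiles, and that of the 40 was 1.67, 2.6, 1.31 and 1.92. For 33 of the 40, CHIR99021 at 3 d ON stood below all 3 unstimulated optoWnt libraries, and for 64 of the 66 it stood above them, beside 33.1% of all genes below and 35.7% above. Both groups were chosen partly on that library. A single sign in all 4 pairs, of any size, was seen for 2696 of 10757 genes (25.1%).

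One of the 66 genes, ENSRNOG00000002728, had no read in any light library, against 10.6, 23.3, 7.29 and 6.49 CPM under CHIR99021. It is named after its values were seen. With 3 counts over the pooled light libraries as the floor (0.238 CPM), it was at least 49.5-fold lower under light, and it missed the threshold (edgeR adjusted p = 0.078). CHIR99021 at 5 d ON gave 54.7 CPM, Wnt3a at 3 and 5 d ON 6.62 and 43.2 CPM, and unstimulated optoWnt cells 0, 0.506 and 1.52 CPM at 0, 3 and 5 d.

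While the stimulus was ON, 4 of 10757 genes were called (0.0372%), 1 higher (0.0093%) and 3 lower (0.0279%) under light, over the pairs of 1 d ON and 3 d ON (edgeR, 2 pairs). ENSRNOG00000003171 was the gene that was higher, with 21.8 and 108 CPM under light at 1 and 3 d ON, against 0.743 and 4.52 CPM under CHIR99021 (log2 fold change 4.64, SE 0.59, edgeR adjusted p = 0.03). Without a stimulus it stood at 0.841, 175 and 362 CPM in optoWnt cells at 0, 3 and 5 d. After withdrawal it stood at 79.9 and 73.1 CPM under light and at 53.9 and 120 CPM under CHIR99021, so that the libraries of the inducers overlapped. CHIR99021 at 5 d ON had 10.6 CPM and Wnt3a at 3 d ON 214 CPM.

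ENSRNOG00000013859 had the largest fold change of the genes lower while ON. It had 0 and 0.804 CPM under light at 1 and 3 d ON, against 5.2 and 185 CPM under CHIR99021 (edgeR adjusted p = 0.02). Pooled, this was 2 reads against 847, which puts CHIR99021 over light at 191 (95% counting interval 52.6 to 1580). The call was lost without the 3 d ON light library (edgeR adjusted p = 0.64) or the 3 d ON CHIR99021 library (1), which leaves 1 pair. The fitted log2 fold changes were then -7.46 and -7.36, against -7.77 with both pairs, and since that pair has no read under light they depend on the prior count. After withdrawal it stood at 0.81 and 0.891 CPM under light, against 6.63 and 4.33 CPM under CHIR99021. The other 2 genes lower while ON were ENSRNOG00000003745 (log2 fold change -4.8, SE 0.53, edgeR adjusted p = 0.016) and ENSRNOG00000058645 (log2 fold change -4.45, edgeR adjusted p = 0.016). At a common depth, 0 genes were called while ON (edgeR, 919 with an unadjusted p under 0.05), and DESeq2 on the full counts called 223.

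After withdrawal, 1 of 10757 genes was called (0.0093%), namely ENSRNOG00000058645 (log2 fold change -4.49, SE 0.48, adjusted p = 0.022 in edgeR). With light 11.1 and 6.24 CPM and CHIR99021 277 and 127 CPM at 1 and 2 d OFF, its difference was as large as while ON (-4.45). The call was lost when any of the 4 withdrawn libraries was left out (edgeR adjusted p from 0.3 to 0.6), which leaves 1 pair, while the log2 fold change stayed between -4.62 and -4.35. Leaving out an ON library raised the count to between 26 and 43 genes.

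Whether withdrawal changed the difference between the inducers was asked with an interaction term. It was called for 0 of 10757 genes (0%; edgeR, smallest adjusted p 0.84), and by DESeq2 for 1. Before adjustment, 200 genes had p under 0.05 in edgeR, and chance alone gives 538. The fit has 2 residual degrees of freedom, and the median SE of the interaction was 0.79 on the log2 scale, so even sizeable changes would have gone uncalled. Of the 14 genes lower under light, 7 had a smaller mean difference after withdrawal than while ON, with a median interaction of 0.09. Single named genes had large fitted interactions that were not called: -4.71 for ENSRNOG00000003171, 5.17 for ENSRNOG00000013859 and 1.99 for ENSRNOG00000003745. These genes were named for their differences while ON. For ENSRNOG00000058645, ENSRNOG00000009983 and ENSRNOG00000029698 it was -0.04, -0.07 and -0.77. Both libraries that stand apart enter the interaction term, light on the ON side and CHIR99021 on the OFF side, and their part in it was not tested. Leaving out a 1 d ON library gave 36 (light) or 14 calls (CHIR99021).

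For most genes the data bound the difference only loosely. The median SE of the log2 fold change over 4 profiles was 0.38 for all genes, 0.68 for the 1270 genes under 5 CPM and 0.28 for the 2285 genes over 100 CPM. A 95% interval that lay wholly within 2-fold in either direction was found for 2839 of 10756 genes (26.4%), among them 1081 of those over 100 CPM (47.3%) and 3 of those under 5 CPM (0.236%). For these genes a difference of 2-fold or more between light and CHIR99021, averaged over profiles, lies outside the unadjusted interval. The remaining genes that were not called are neither shown to differ nor shown to be alike.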

How the data were processed

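The authors deposited whole-number counts of reads per Ensembl gene ID (32623 IDs), with no normalization, from QuantSeq 3' libraries, per the labels' protocols. The submitters' processing notes name Bowtie2, Subread, featureCounts and the build Rnor_6.0. Versions, strand setting and the handling of reads with several matches: not given in the sources used here. For that reason counts of overlapping or near-identical genes are uncertain. Wells were tied to libraries by each sample's description, with 0 other per-sample columns.

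The test was edgeR 4.0.16 (R 4.3.3, limma 3.58.1), glmQLFit and glmQLFTest with TMM scaling and filterByExpr by inducer (10757 genes), fitted to the 8 libraries with profile as a block and inducer (3 residual degrees of freedom, biological coefficient of variation 0.409). An inducer by withdrawal term gave the ON, withdrawn and interaction contrasts (2 residual degrees of freedom). P-values rest on the spread between these libraries, moderated over genes. SE is the log2 fold change divided by the root of F. CPM use TMM over all 20 libraries, and log2 CPM a prior count of 2. The script was tested on simulated data. Alternatives were DESeq2 1.42.0 and its size factors, no filter, Wnt3a or all libraries in the fit and no block. Further ones were the first principal component of the fitted libraries as covariate, left-out libraries, other thresholds and, added after seeing the data, thinned counts. Pairing by profile comes from the labels; deviations from inducer means correlated at 0.257, 0.0321, 0.257 and -0.333 over the profiles.

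No ID could be matched to a symbol (0 matched), so the planned gene lists and the symbol part of the naming rule were not run. Named were up to 2 IDs per direction with the largest change among called genes with at least 5 CPM on average and, over all profiles, 1 sign in all 4 pairs. Members and rules were chosen with earlier results of these data known. A count of 0 allows up to 1.56 CPM in the shallowest light library and 0.668 in the deepest (3 counts, counting error only).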

Additional observations from a re-analysis of the deposited data

Results flagged for a closer look

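With 22 groups of 4 libraries examined, 3 had a library whose gap to its nearest neighbour exceeded Dixon's 95% critical value. Chance flags about 1 in 20 groups of independent, normally spread values, a rate that does not hold here. Most groups were the CPM and pair differences of genes named for large differences, with several linked groups per gene. The 4 libraries of a group differ in treatment profile and are not replicates. ENSRNOG00000013859 had 185 CPM in CHIR99021 at 3 d ON, far from the next highest CHIR99021 value of 6.63 CPM. The same gene stood at 0 CPM in light at 1 d ON, apart from the other light libraries, which had 0.804 CPM or more, although a count of 0 in that library allows up to 1.56 CPM. CHIR99021 at 1 d ON had 5125320 reads, apart from 4468639 in the next deepest CHIR99021 library.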

How the results depend on the processing

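No named gene changed direction, but the balance of calls did in some fits. Over the profiles it was 2 higher and 14 lower under light, against 231 and 205 with DESeq2. Lower genes stayed in excess with no filter (150 higher, 219 lower), with Wnt3a (22 and 86) and with all 20 libraries (54 and 117). At an adjusted p under 0.1 in edgeR the split was 32 and 69. While ON the balance was 1 and 3, against 132 and 91 with DESeq2 and 25 and 22 with the Wnt3a libraries. Over the 4 profiles, the 16 calls became 436 with DESeq2, 369 with no low-count filter, 108 with the 4 Wnt3a libraries, 171 with all 20 libraries, 1087 with the first principal component as a covariate and 189 without the 3 d ON and 1 d ON 2 d OFF pairs. At an adjusted p under 0.1 there were 101 calls, and under 0.01 there was 1. Without the replicate block, that is without pairing by profile, 1 gene was called. DESeq2's size factors and thinned counts both gave 16. While ON, the 4 calls became 223 with DESeq2, 249 with no filter, 47 with Wnt3a, 0 with thinned counts and 1150 with the component. After withdrawal, the 1 call became 44, 48 and 3 with DESeq2, no filter and Wnt3a, and 61 with the component. The interaction, with 0 calls, had 1 with DESeq2, 4 with no filter and 2 with the component. That component was drawn from the counts under test, and light was higher on it in every pair. Leaving out 1 library at a time gave 0 to 83 calls over the profiles, 6 to 229 while ON, 0 to 43 after withdrawal and 0 to 36 for the interaction. Where a library was left out, its partner is taken up by the profile block and adds nothing to the difference, so 3 pairs remain, or 1 pair within a contrast of 2. The cause of these shifts was not tested. Counts of 2-fold differences within profiles stayed within 1.5 times under other prior counts and CPM minimums. Depth limits low genes most: 3 of 1270 genes under 5 CPM had an interval within 2-fold.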
